A study of Mus musculus with 6 samples.

Results

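The genes described here encode the machinery that copies DNA and the factors that bring cells into S phase: the MCM helicase and the proteins that load and activate it, the sliding clamp and its loader, the replicative polymerases, the single-strand binding protein RPA, the enzymes that join Okazaki fragments and supply nucleotides and histones, and 3 regulators of S phase entry. The 48 genes were taken from the deposited tables by symbol, out of 21899 genes listed. Each symbol matched a single identifier, and all 48 passed the filter on low counts that left 12768 genes for testing, so none of the 48 was lost. They were measured by bulk mRNA sequencing in induced regulatory T cells (iTregs), the suppressive CD4 T cells that can be made in culture from splenic CD4 T cells. The samples were 3 from iWT control mice (WT) and 3 from Dlst-Treg iKO mice (KO), in which Dlst, the E2 subunit gene of 2-oxoglutarate dehydrogenase, can be deleted in Treg cells. Cells of both genotypes were polarised for 2 days with 4-hydroxytamoxifen, which activates tamoxifen-inducible Cre recombinase, and were then sorted as positive for CD4, FoxP3-GFP and tdTomato-RFP. The labels do not give the promoter that drives Cre, the age and sex of the mice or any pooling of animals. Nor do they state whether each sample is its own animal or culture, and the spread on which the p-values rest may therefore be partly technical.

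Naive T cells rest outside the cell cycle, and stimulation through the T cell receptor with cytokines drives them into a run of rapid divisions while they differentiate. Before S phase the origin recognition complex, CDC6 and CDT1 load the MCM2-7 ring onto origins, and CDC45 and the GINS complex then turn the loaded ring into the active CMG helicase. Transcription of most of these genes is under the E2F factors, which are released when cyclin-dependent kinases inactivate the retinoblastoma proteins, so their mRNAs are commonly used as a measure of how many cells are in or near S phase. In bulk samples fewer cells in S phase and less of the mRNA per cell cannot be told apart.

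The libraries held from 33590510 to 49772670 estimated counts, and the fewest counts of any of the 48 genes in any library were 469, for Gins1. Dlst, the gene targeted for deletion, was at 161, 149 and 149 CPM (counts relative to library size, scaled between libraries by TMM) in WT replicates 1 to 3 and at 125, 129 and 129 CPM in KO replicates 1 to 3. The groups did not overlap, and the log2 fold change (KO minus WT) was -0.26 (SE 0.05, edgeR adjusted p = 0.0894, against 0.00129 to 0.28 over all alternatives). The deleted part of Dlst is not named in the labels, so counts from the rest of the gene may remain. Neither this nor the share of KO cells that carried the deletion was tested. The 8 T cell markers, Cd3e, Cd4 and Foxp3 among them, were above 0 in every sample and summed to between 3757 and 3922 TPM. The sum does not show how single markers differed. Foxp3 was at 162, 204 and 204 TPM in WT and 240, 210 and 230 TPM in KO (edgeR adjusted p = 0.305). Cd4 was at 286, 279 and 295 TPM in WT and 261, 248 and 241 TPM in KO (edgeR adjusted p = 0.151, DESeq2 adjusted p = 0.0118). Markers of other cells were not evenly spread either. The 6 B cell markers summed to 87.6 TPM in WT replicate 1, against 28.7 and 14.0 TPM in the other WT samples and 28.2 to 31.2 TPM in KO, and none of them was at 0 in any sample. The 8 neutrophil markers summed to 12.5 to 87.6 TPM in WT and 185 to 841 TPM in KO, with the highest value in KO replicate 1, and 3 of them were at 0 in WT replicate 3 and 1 in WT replicate 2. The 8 monocyte and macrophage markers summed to 23.0 to 35.0 TPM in WT and 113 to 449 TPM in KO. The highest sum was again in KO replicate 1, where Lyz2 alone was at 419 TPM. Csf1r, Adgre1, Cd68 and Mrc1 were also highest in that sample, while C1qa, C1qb and Fcgr1 were not. In each of WT replicates 2 and 3, 1 of the 8 was at 0. The CD8 T cell markers, all above 0, summed to 34.9 to 58.7 TPM in WT and 65.3 to 78.3 TPM in KO, and the erythroid markers to at most 2.87 TPM in any sample, with Hba-a1 at 0 in 5 samples.

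All 48 replication genes had a lower fitted level in KO than in WT, but none of the differences passed the test. Log2 fold changes (KO minus WT) ran from -0.35 for Mcm10 to -0.022 for Ccne2, with a median of -0.16, while the median over all 12768 tested genes was -0.0029 and 50.9% of those genes lay below 0. With edgeR's quasi-likelihood test, adjusted by Benjamini-Hochberg over all genes, 0 of 48 were called in either direction at an adjusted p under 0.05 (smallest 0.16, for Mcm10). Of all tested genes 0.674% were called, 0.219% lower and 0.454% higher. At an unadjusted p under 0.05 there were 11 of 48, all lower, against 6.6% of tested genes that were lower and 8.47% that were higher at that p. DESeq2 called 1 of the 48, Mcm10 (adjusted p = 0.0271, against 0.0271 to 0.322 over all alternatives), and had 14 lower at an unadjusted p under 0.05, against 6.09% of tested genes. It called 4.17% of genes, 1.29% lower. In 10 of the 48 each KO sample lay below each WT sample, which held for 10.9% of tested genes. These 10 were Mcm10, Cdc45, Gins4, Rfc3, Rfc5, Pola1, Pola2, Rrm1, Rrm2 and Chaf1a.

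These genes also differed among the WT samples themselves. WT replicate 1 was the highest of the 6 samples for 44 of the 48 genes, which held for 24.6% of tested genes, and KO replicate 1 was the lowest for 27 of the 48 (26.6% of tested genes). The mean of log2 CPM over the 48 genes, each taken relative to its own mean over the 6 samples, was 0.25, -0.083 and 0.072 in WT replicates 1 to 3 and -0.12, -0.063 and -0.048 in KO replicates 1 to 3. WT replicate 2 thus lay below KO replicates 2 and 3, and for 22 of the 48 genes its level was below both of theirs. For 47 of the 48 genes the range within WT exceeded the size of the KO-minus-WT difference. The first is a range of single samples and the second a difference of group means, so they are unlike measures. For 25 genes the KO mean lay inside the WT range. Shares over all tested genes were not computed for these counts or for the 22 genes above, so they are not read as particular to the 48. The median gene was 0.26 higher in WT replicate 1 than in the mean of the other WT samples, on the log2 scale. Without WT replicate 1 the median log2 fold change of the 48 genes was -0.067, with 39 below 0 (49.8% of genes tested in that fit), 0 called (0.307% called lower) and 4 lower at an unadjusted p under 0.05 (7.08%). Without WT replicate 2 the median was -0.23, with 48 below 0 (49.2%), 0 called (0.21% called) and 35 lower at an unadjusted p under 0.05 (5.99%). Without KO replicate 1 it was -0.14 with 47 below 0 (51.5%), and without the replicates numbered 1 of both groups -0.051 with 41 below 0 (50.4%). The summed B cell markers were also highest in WT replicate 1 and the neutrophil and macrophage markers in KO replicate 1, as given above, and their part in these differences was not tested.

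**Figure D1:**
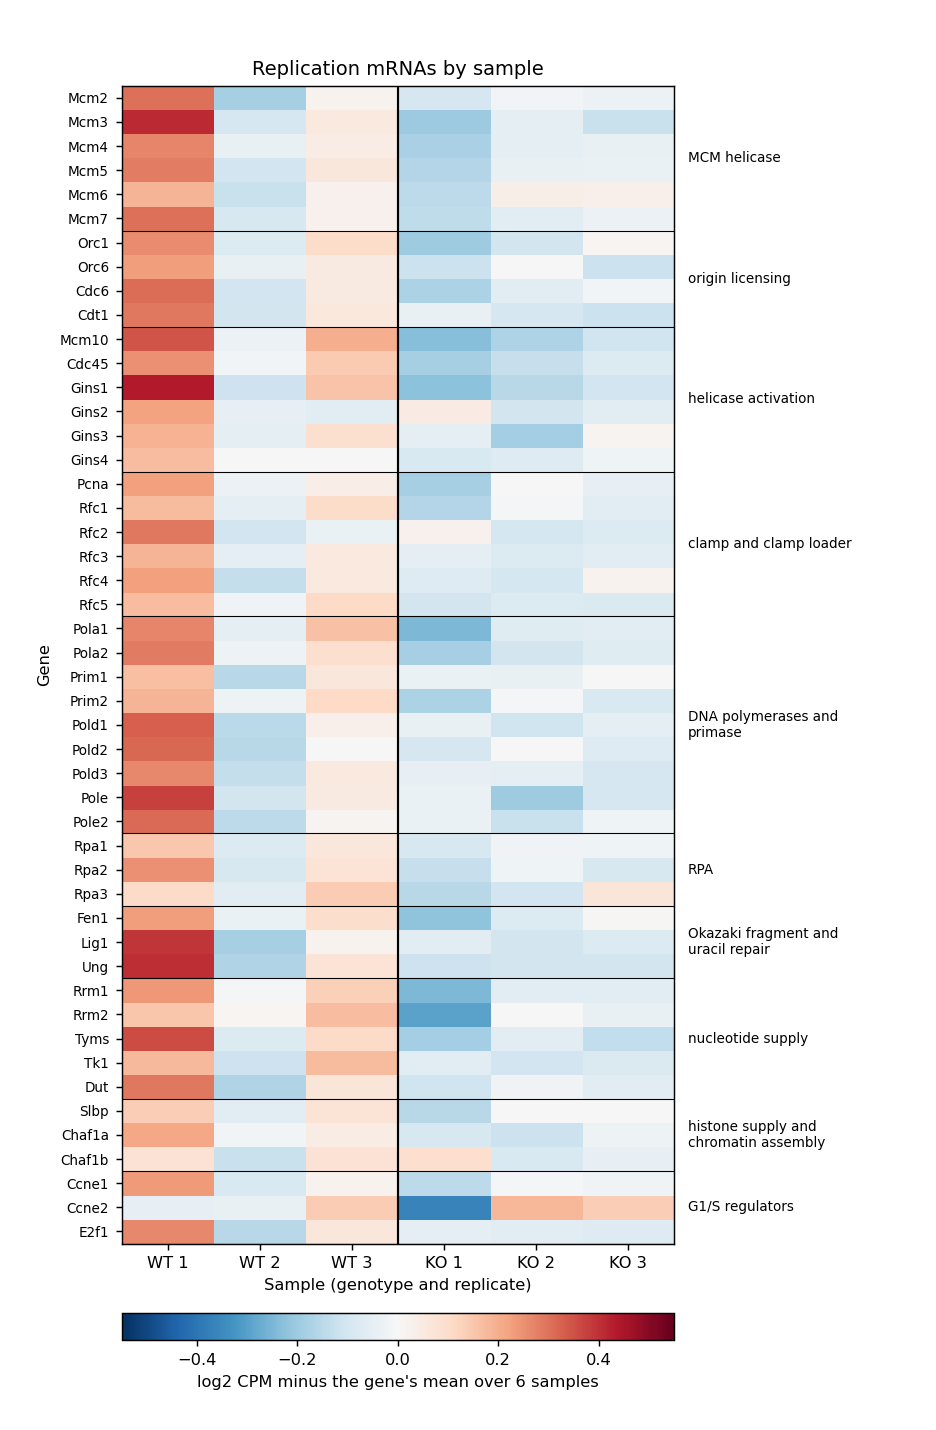
Heat map of log2 CPM minus the gene's mean over the 6 samples, with 1 row for each of the 48 genes, grouped by role, and 1 column per sample. The WT 1 column is the highest in 44 rows, while WT 2 and the KO columns lie close to each other.

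The 250 bases before the annotated starts of these genes were read for the letters of the E2F site. Whether such sites bear on the pattern across samples was not tested. RefSeq's promoter table (GRCm38.p6) held 40 of the 48 genes. The letters searched, on both strands, were TTTCCCGC, TTTCGCGC, TTTGCCGC and TTTGGCGC, which can overlap each other, and CCAAT, the site of the NF-Y factor that many cell cycle promoters carry. An E2F match stood in 8 of the 40 genes (20%), against 3.93% of the tested genes in the table, and CCAAT in 23 of 40 (57.5%), against 40.8%. Of the G2 and M phase genes described below, 25 were in the table. An E2F match stood in 1 of those 25 (4%) and CCAAT in 19 (76%), so CCAAT is not particular to the replication genes. The 8 replication genes with an E2F match were Mcm5, Mcm6, Mcm7, Orc1, Cdc6, Gins3, Pola1 and Rfc3. They had a median log2 fold change of -0.17, and the 32 replication genes without a match had one of -0.16. Mcm10 and Cdc45, which had the smallest p-values, were among those without, which says only that these letters are not in that window. The windows of Mcm6, Pola1 and Mcm5 are given here as examples, with their matches in capitals. They are the 3 of the first 6 by number of matches, overlapping ones counted once, whose windows overlap no annotated UTR. Ties were ordered by the smaller edgeR p of KO against WT, so the choice of windows rests partly on that p. Each is read 5′ to 3′ on the gene's strand and ends at the base before the start: for Mcm6 chr1:128359706-128359955 (minus strand), for Pola1 chrX:93632156-93632405 (minus strand) and for Mcm5 chr8:75109259-75109508 (plus strand).
Mcm6: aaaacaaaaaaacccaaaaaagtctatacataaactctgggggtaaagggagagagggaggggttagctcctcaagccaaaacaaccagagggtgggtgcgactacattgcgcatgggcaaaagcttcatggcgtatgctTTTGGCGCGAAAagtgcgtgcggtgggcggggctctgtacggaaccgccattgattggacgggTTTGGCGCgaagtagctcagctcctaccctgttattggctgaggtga
Pola1: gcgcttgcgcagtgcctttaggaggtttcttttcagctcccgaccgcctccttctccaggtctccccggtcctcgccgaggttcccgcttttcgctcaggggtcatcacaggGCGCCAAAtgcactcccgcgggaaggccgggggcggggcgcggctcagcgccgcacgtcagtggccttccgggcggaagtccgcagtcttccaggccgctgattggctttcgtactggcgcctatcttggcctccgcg
Mcm5: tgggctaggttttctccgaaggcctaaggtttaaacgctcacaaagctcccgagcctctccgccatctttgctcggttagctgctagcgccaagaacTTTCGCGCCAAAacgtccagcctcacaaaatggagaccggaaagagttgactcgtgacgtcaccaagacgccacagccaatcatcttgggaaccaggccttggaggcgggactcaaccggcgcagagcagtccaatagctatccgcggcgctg
In Mcm6 the matches begin 110, 106 and 47 bases before the start, the first 2 overlapping on opposite strands. The single match in Pola1 begins 138 bases before its start, on the opposite strand, and the overlapping pair in Mcm5 begins 153 and 149 bases before its start. The CCAAT letters occur on either strand 2 times in the Mcm6 and Mcm5 windows and 1 time in that of Pola1.

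The 6 subunits of the MCM2-7 ring, the motor of the replicative helicase, had log2 fold changes from -0.26 to -0.06 with a median of -0.17, and 0 of 6 were called. Mcm3 had the largest difference of the ring genes, at 406, 286 and 316 CPM in WT and 265, 294 and 280 CPM in KO, a log2 fold change of -0.26 (SE 0.12, edgeR adjusted p = 0.37), with KO replicate 2 above WT replicate 2. Mcm2 was at 308, 220 and 253 CPM in WT and at 234, 247 and 244 CPM in KO. Its highest and its lowest value were thus both WT samples, and its log2 fold change of -0.11 (SE 0.11) became 0.03 without WT replicate 1. Mcm4 was at 377, 304 and 322 CPM in WT and 276, 302 and 304 CPM in KO, and Mcm5 at 372, 285 and 320 CPM against 274, 297 and 298 CPM. For Mcm7 the values were 337, 257 and 278 CPM in WT and 249, 262 and 267 CPM in KO. In each of these 3, WT replicate 1 stood far above the rest and WT replicate 2 among the KO samples. Mcm6, the most abundant of the ring genes, had 700, 565 and 626 CPM in WT and 557, 629 and 627 CPM in KO. WT replicate 1 lay above all its KO values and KO replicate 1 below all its WT values, while KO replicates 2 and 3 lay within the WT range, and its log2 fold change was -0.06 (SE 0.09), or 0.019 without WT replicate 1. Without that sample the median of the 6 genes was -0.054, against -0.25 without WT replicate 2.

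The 4 licensing genes, Orc1 and Orc6 of the origin recognition complex and the MCM loaders Cdc6 and Cdt1, had log2 fold changes between -0.19 and -0.16 (median -0.17) and 0 were called. Orc6 was at 55.3, 45.8 and 48.7 CPM in WT and 43.5, 47.1 and 43.4 CPM in KO (log2 fold change -0.16, SE 0.08, edgeR adjusted p = 0.38). One KO sample of Orc6 lay inside the WT range. All 4 genes were highest in WT replicate 1, and without it their median was -0.074.

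Genes that turn the loaded ring into the working helicase held the 2 largest differences of the 48, those of Mcm10 and Gins1. Mcm10, which binds the ring and is needed to fire origins, was at 82.4, 63.5 and 74.5 CPM in WT and 55.2, 57.8 and 60.2 CPM in KO. Its groups did not overlap and its log2 fold change was -0.35 (SE 0.09, edgeR adjusted p = 0.16), or -0.26 (adjusted p = 0.201) without WT replicate 1. Cdc45, a subunit of the CMG helicase, was at 75.0, 62.3 and 69.5 CPM in WT and 55.6, 57.7 and 59.8 CPM in KO. These did not overlap either, at a log2 fold change of -0.26 (SE 0.07, edgeR adjusted p = 0.182). Gins1, of the GINS complex, was at 21.1, 14.4 and 17.3 CPM in WT and at 13.3, 14.0 and 14.5 CPM in KO. Its log2 fold change of -0.34 (SE 0.13; the edgeR adjusted p was 0.298) was -0.19 without WT replicate 1, and WT replicate 2 lay just under the highest KO sample. The other GINS genes were closer to 0, with Gins3 at -0.15, Gins4 at -0.12 and Gins2 at -0.078, or 0.018 for Gins2 without WT replicate 1. The median of the 6 activation genes was -0.20 with all samples and -0.14 without WT replicate 1. At an unadjusted p under 0.05, 3 of the 6 were lower, against 6.6% of tested genes.

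The sliding clamp Pcna, which tethers polymerases to the template, was at 595, 497 and 521 CPM in WT and 448, 509 and 492 CPM in KO. That is a log2 fold change of -0.16 (SE 0.08, edgeR adjusted p = 0.415), with KO replicate 2 inside the WT range. Rfc1 to Rfc5, the subunits of the loader that opens the clamp, lay between -0.17 and -0.10. Rfc5 was at 77.5, 67.9 and 74.3 CPM in WT and 64.2, 65.4 and 65.1 CPM in KO. Its groups did not overlap, its log2 fold change of -0.17 had the smallest standard error of the 48 (0.06), and its edgeR adjusted p was 0.242. Rfc2, at -0.11, became 0.023 without WT replicate 1. Of the clamp and its loader 0 of 6 were called.

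The 9 genes of DNA polymerases and primase had log2 fold changes from -0.25 to -0.06, with a median of -0.15, and 0 were called. Pola2, the B subunit of polymerase alpha, was at 103, 82.6 and 89.7 CPM in WT and 74.2, 78.5 and 80.4 CPM in KO. Each KO sample of Pola2 was below each WT sample (log2 fold change -0.24, SE 0.08, edgeR adjusted p = 0.246). Pola1, its catalytic partner, gave -0.25 (SE 0.09) with no overlap as well, while the primase genes that act with them stood at -0.06 for Prim1 (0.014 without WT replicate 1) and -0.18 for Prim2. Pold2, a subunit of the lagging-strand polymerase delta, was at 77.0, 55.5 and 61.8 CPM in WT and at 58.0, 61.8 and 58.8 CPM in KO. WT replicate 1 lay above and WT replicate 2 below all the KO samples of Pold2. Its log2 fold change of -0.12 (SE 0.11) became 0.019 without WT replicate 1. Pole, the catalytic subunit of the leading-strand polymerase, gave -0.23 (SE 0.12), or -0.083 without WT replicate 1, and Pole2 -0.13, or 0.0030 without it. Without WT replicate 1 the median of the 9 genes was -0.029. WT replicate 2 was the lowest of the 6 samples for 5 of them, and for 14 of all 48 genes. The share over all tested genes was not computed.

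RPA coats the single strands that the helicase exposes. Its large subunit gene Rpa1 was at 290, 249 and 274 CPM in WT and 246, 258 and 258 CPM in KO (log2 fold change -0.09, SE 0.07). For Rpa2 the values were 84.0, 66.4 and 74.3 CPM in WT and 64.5, 69.3 and 66.3 CPM in KO (-0.17, SE 0.09). Both genes overlapped between groups, and with Rpa3 at -0.13 none of the 3 was called. Fen1, the nuclease that trims Okazaki fragments, was at 124, 104 and 113 CPM in WT and 91.1, 101 and 106 CPM in KO (log2 fold change -0.19, SE 0.08, edgeR adjusted p = 0.335). Lig1, the ligase that seals them, was at 226, 152 and 174 CPM in WT and 165, 161 and 164 CPM in KO. The KO samples of Lig1 were nearly alike and all lay within the WT range, and its log2 fold change of -0.17 (SE 0.13) was 0.0010 without WT replicate 1. Ung, the glycosylase that removes uracil from DNA, went from -0.23 to -0.066 when that sample was left out.

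Among the genes that supply nucleotides, Rrm1 and Rrm2 encode the subunits of ribonucleotide reductase, which makes deoxyribonucleotides. Rrm1 was at 428, 362 and 398 CPM in WT and 306, 349 and 349 CPM in KO, with no overlap, a log2 fold change of -0.24 (SE 0.08) and an edgeR adjusted p of 0.229. Rrm2 was at 308, 279 and 312 CPM in WT and 226, 278 and 270 CPM in KO. Its groups were separated by a narrow gap, with WT replicate 2 just above KO replicate 2, and its log2 fold change of -0.22 (SE 0.09) was -0.13 without KO replicate 1. Tyms, thymidylate synthase, gave -0.27, the salvage kinase Tk1 -0.17 and the dUTPase gene Dut -0.14. None of the 5 was called, and their median of -0.22 was -0.15 without WT replicate 1.

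Slbp, which binds the stem loop of histone mRNAs, was at 147, 128 and 141 CPM in WT and 120, 134 and 134 CPM in KO, with the KO samples 2 and 3 inside the WT range (log2 fold change -0.10, SE 0.07). CAF-1 places new histones behind the fork, and its subunit genes did not have the same pattern across samples. Chaf1a was at 102, 87.5 and 90.9 CPM in WT and 83.1, 81.3 and 86.6 CPM in KO, with no overlap (log2 fold change -0.16, SE 0.07, edgeR adjusted p = 0.326). Chaf1b was at 44.4, 38.6 and 44.6 CPM in WT and 44.9, 39.8 and 40.8 CPM in KO. It was thus highest in a KO sample and lowest in a WT sample, with a log2 fold change of -0.023 (SE 0.08). The difference between the Chaf1a and Chaf1b values was not tested.

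Of the regulators of S phase entry, Ccne1, a cyclin partner of CDK2, was at 50.6, 40.5 and 43.5 CPM in WT and 38.9, 42.8 and 42.3 CPM in KO (log2 fold change -0.12, SE 0.09). Ccne2, the other cyclin E gene, was at 39.1, 39.2 and 44.5 CPM in WT and 31.3, 45.8 and 44.3 CPM in KO. It was one of the 4 genes not highest in WT replicate 1, with its highest and its lowest value both in KO. Its log2 fold change was -0.022 (SE 0.14, the largest standard error of the 48), or 0.14 without KO replicate 1 and 0.042 without WT replicate 3. E2f1, the transcription factor of this programme, gave -0.13 (SE 0.10) with all samples and -0.019 without WT replicate 1. None of these 3 was called.

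**Figure D2:**
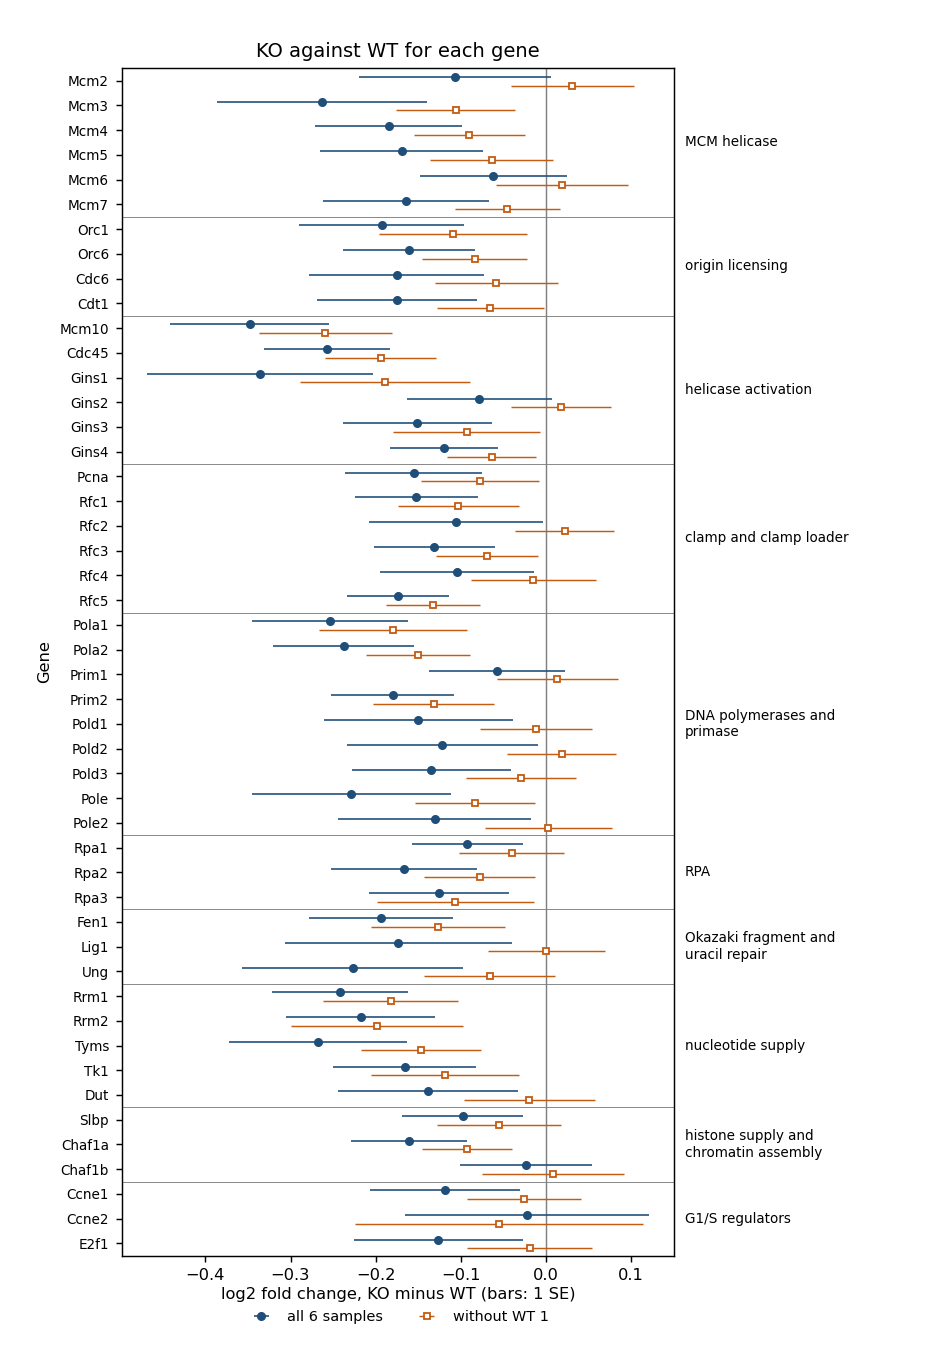
Log2 fold change of KO minus WT for each of the 48 genes with bars of 1 SE, from edgeR with all 6 samples (filled circles) and without WT replicate 1 (open squares). All circles lie below 0, while the squares lie nearer to 0 for all but Ccne2 and 9 of them lie above it.

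Per gene length, in TPM, the members of the same complexes were present at unequal levels. Pcna was the highest of the 48, at 617 ± 64.1 TPM in WT and 552 ± 34.7 TPM in KO (SD, n = 3 each), and Gins3 the lowest, at 14.4 ± 1.48 and 12.8 ± 1.11 TPM. Mcm6, at a mean of 363 TPM over the 6 samples, was 2.44 times Mcm2 (149 TPM), while Mcm3 (177 TPM), Mcm4 (176 TPM), Mcm5 (204 TPM) and Mcm7 (207 TPM) lay between them. Rrm2 (281 ± 22.5 TPM in WT and 241 ± 27.7 TPM in KO) and Dut (262 ± 43.7 and 237 ± 6.76 TPM) overlapped in level, above Rrm1 (220 ± 13.9 and 181 ± 8.31 TPM). Rpa1 stood at 153 TPM, about 2.20 times Rpa2 (69.4 TPM) and with Rpa3 (71.0 TPM) next to the latter. In the clamp loader Rfc1 to Rfc5 ran from 36.7 TPM for Rfc3 to 65.8 TPM for Rfc1. Orc1 (14.1 TPM) was far below Orc6 (67.7 TPM), and among the GINS genes Gins4 (52.1 TPM) was above Gins2 (30.1 TPM), Gins1 (25.2 TPM) and Gins3 (13.6 TPM). Together the 48 genes made up 0.423 to 0.56% of all TPM, with summed levels of 5598, 4392 and 4973 TPM in WT and 4230, 4541 and 4530 TPM in KO.

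**Figure D3:**
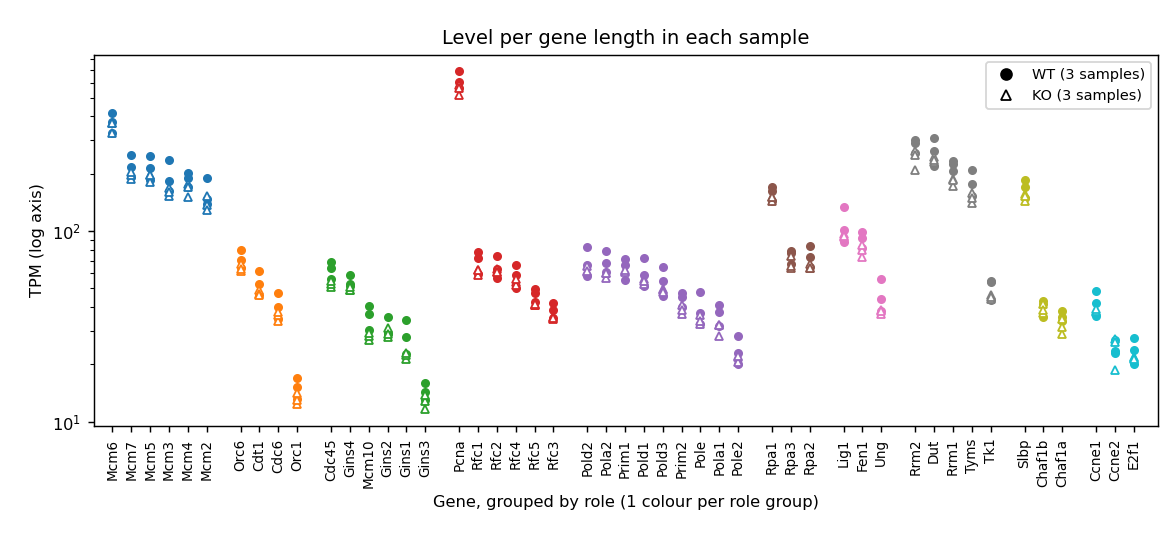
TPM on a log axis for each of the 48 genes, ordered by level within role groups, with filled circles for the 3 WT samples and open triangles for the 3 KO samples. Pcna is highest at a mean of 584 TPM and Gins3 lowest at 13.6 TPM.

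Genes of G2 and M phase were taken as the nearest comparison. All 30 of them also lay below 0 (50.9% of tested genes), with a median log2 fold change of -0.19. By edgeR 0 were called (0.674% of tested genes) and 11 were lower at an unadjusted p under 0.05 (6.6%). Cdk1, the mitotic kinase, was at -0.24 (SE 0.07, edgeR adjusted p = 0.183), Aurkb, a kinase of the chromosomal passenger complex, at -0.30 (SE 0.09, adjusted p = 0.211) and Cenpa, the centromeric histone, at -0.19 (SE 0.06, adjusted p = 0.215). Their pattern over the WT samples differed from that of the replication genes. WT replicate 3 was the highest of the 6 samples for 28 of the 30 (10.3% of tested genes) and WT replicate 1 for 1, where WT replicate 1 had been highest for 44 of the 48 replication genes and WT replicate 3 for 2. Relative to the gene's 6-sample mean, the 30 genes averaged 0.058, -0.014 and 0.23 in WT replicates 1 to 3 and -0.18, -0.064 and -0.029 in KO replicates 1 to 3. Each KO sample thus lay below each WT sample on this mean, which was not so for the replication genes. Without WT replicate 1 the G2 and M phase genes had a median of -0.20 with 30 of 30 below 0, against -0.067 and 39 of 48 for the replication genes. Without WT replicate 3 their median was -0.12, and that of the replication genes -0.17. Whether the KO-minus-WT difference itself differs between these gene groups was not tested.

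**Figure D4:**
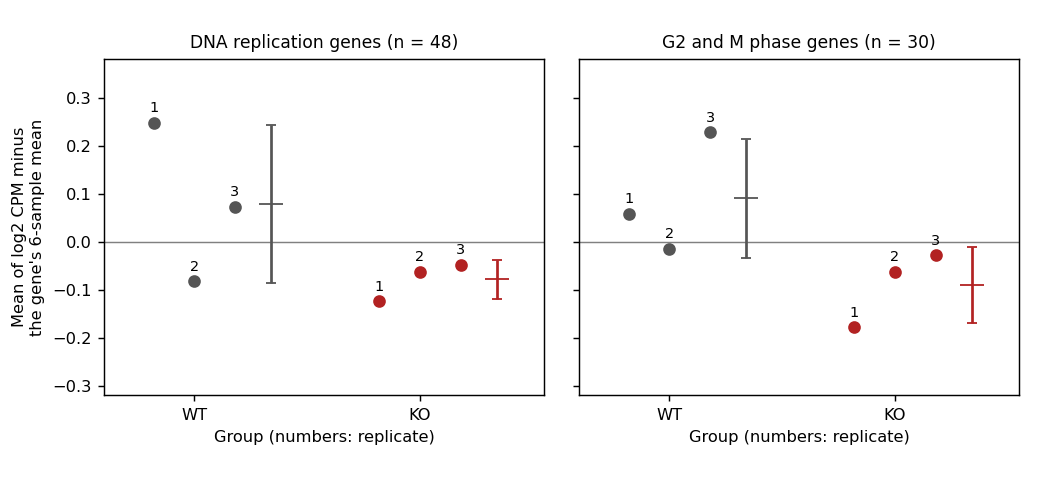
Mean over genes of log2 CPM minus each gene's mean over the 6 samples, for the 48 replication genes (left) and 30 G2 and M phase genes (right). Points are samples with their replicate number, and the dash with bars is the mean ± SD of 3 samples; WT 1 is highest on the left at 0.25 and WT 3 on the right at 0.23.

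Other genes of the same processes, in lists that do not share members with the 48, had smaller or similar medians and 0 calls by edgeR, while DESeq2 called Dna2 lower and Samhd1 higher. Of 30 further replication factors 24 lay below 0 (median -0.11), 6 of them at an unadjusted p under 0.05. Over all tested genes 50.9% lay below 0 and 6.6% were lower at that p. Dna2, a nuclease and helicase of Okazaki fragments, was at -0.36 (SE 0.08, edgeR adjusted p = 0.128, DESeq2 adjusted p = 0.0239), Mcm8 at -0.21 and Ticrr, which helps to load CDC45, at -0.21. Of 19 checkpoint and fork protection genes 15 were below 0 (median -0.11), with 3 at an unadjusted p under 0.05, among them Fancd2 at -0.27 and Clspn, which relays the signal from ATR to CHK1, at -0.22. All 12 measured genes of chromatin and DNA methylation copying were below 0 (median -0.17), with Uhrf1, which brings DNMT1 to hemimethylated DNA, at -0.28 (SE 0.10, adjusted p = 0.252 by edgeR), Asf1b at -0.21 and Supt16 at -0.21. Without WT replicate 1 the medians of these 3 lists were -0.058, -0.045 and -0.063.

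The genes that control the G1 to S step were more mixed. Of 31 tested genes of G1/S control and the E2F family 20 were below 0 (50.9% of all tested genes) and 11 above. Their median was -0.11 and 0 were called. At an unadjusted p under 0.05, 8 were lower (6.6% of all tested genes) and 1 higher (8.47%). Cdk6, the G1 kinase, was at -0.27 (SE 0.08, edgeR adjusted p = 0.193), and at -0.33 without WT replicate 1. E2f3, an activating E2F factor, stood at -0.21 and Cdk2, the partner of cyclin E, at -0.20. The 1 higher was Cdkn1b, the inhibitor p27 of CDK2, at 0.15 (SE 0.05, adjusted p = 0.248 by edgeR), named after its value was seen. Of the 25 genes of nucleotide synthesis outside the 48, 20 were below 0 (50.9% of all tested genes), with a median of -0.10. Among them was Ctps, which makes CTP, at -0.13. Samhd1, which degrades deoxynucleotides and is abundant in myeloid cells, was at 319, 271 and 320 CPM in the WT samples and 448, 338 and 377 CPM in the KO samples. Its groups did not overlap, at a log2 fold change of 0.35 (SE 0.11, edgeR adjusted p = 0.215, DESeq2 adjusted p = 0.0452), or 0.24 without KO replicate 1. The summed neutrophil and macrophage markers were highest in that sample, and their part in the Samhd1 value was not tested.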

How the data were processed

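Bulk mRNA sequencing of 6 iTreg samples (3 WT and 3 KO) was analysed. Per the submitters' processing notes FastQC and HISAT2 were used, with versions, counting program and build not given in the sources used here. The authors deposited, per sample, estimated counts (expected counts, 23.5 to 25.2% of genes with decimals) and TPM, which scale by gene length and library total. Of the 48 genes 21 had decimal counts in some library, so part of their reads may be shared with other genes. Counts were rounded, filtered by filterByExpr, scaled by TMM (factors 0.988 to 1.01) and tested with edgeR 4.0.16 (two-sided quasi-likelihood F test, robust, genotype as the single term; R 4.3.3), with Benjamini-Hochberg adjustment over 12768 genes. Alternatives used DESeq2 1.42.0, limma 3.58.1 on log2(TPM + 1) and log2(TPM + 0.1), other filters and scalings, a replicate block and left-out samples. The members and lists were chosen with earlier results of these data known. Values per sample are given for the MCM ring, for the member of smallest p and highest TPM in each role group, and for the extremes. In the other lists up to 3 genes of smallest p are named, and some items are not reported here. H2afz was not matched by symbol. The method was tested on simulated data in which each gene varied on its own, so that test does not cover shifts shared by many genes. KO replicates 2 and 3 were the closest pair (biological coefficient of variation 2.97%, against 7.12 to 14.8% in the other pairs), and their counts differed by more than sampling noise (chi-square per gene 3.50). They were kept as the 2 samples the labels name, which does not show that they come from separate sources, and were also summed as an alternative.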

Additional observations from a re-analysis of the deposited data

How the results depend on the processing

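In all alternatives tried 0 of the 48 genes were called higher, and 0 lower except with DESeq2 (1, Mcm10). Leaving out single samples gave a median for the 48 genes of -0.23 to -0.067, with 39 to 48 below 0, and 3 to 56 genes of all called higher and 1 to 40 lower (58 and 28 with all samples). Higher and lower calls over all genes were 367 and 165 with DESeq2, 311 and 227 without both replicates numbered 1, 6 and 2 with KO replicates 2 and 3 summed and 26 and 13 with limma on log2(TPM + 1). Higher calls numbered 92 when no filter was applied and 33 under a stricter one. Dlst passed with DESeq2 (-0.26) and without both replicates numbered 1 (-0.21). In the latter fit the KO spread rested on replicates 2 and 3 alone, the closest pair. Its p-values may therefore be too small and its calls too many. Leaving out single samples turned the sign of Mcm2 (-0.21 to 0.031), Mcm6 (-0.13 to 0.019), Pold2 (-0.22 to 0.019), Lig1 (-0.29 to 0.0010), Chaf1b (-0.087 to 0.011) and Ccne2 (-0.12 to 0.14), and without WT replicate 1 also of Gins2 (0.018), Pole2 (0.0030), Prim1 (0.014) and Rfc2 (0.023). Without both replicates numbered 1, Mcm2 was at 0.054, Mcm6 at 0.076, Pold2 at 0.039, Ccne1 at 0.019, Ccne2 at 0.10, Prim1 at 0.019 and Dut at 0.0035, and Chaf1b was at 0.0014 with KO replicates 2 and 3 summed. The cause was not tested. With the replicate number as a block 134 genes were called higher and 43 lower, and the 48 had a median of -0.16 with 0 called. The numbers are not known to pair samples: deviations of same-numbered samples correlated at 0.18, 0.078 and 0.084, and WT replicate 2 correlated best with KO replicate 3 (0.11). Standard errors of 0.06 to 0.14 for the 48 genes, from 3 samples per group, set the precision.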
